A study of Mus musculus with 8 samples.

Results

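The smooth muscle contractile program was followed in whole mouse colon through 33 genes that encode the contractile filaments of smooth muscle, the enzymes that switch contraction on and off, the anchors and membrane complexes that carry the force, and the receptors and transcription factors that control it. Actin genes were left out of the list. A gene counted as measured where the platform annotation gave its symbol to a probe, which held for 29 of the 33, and 25 of these passed the detection filter, out of 10184 named genes tested. Myl9, Ppp1r12a, Ppp1r12b and Flna had no probe of that symbol. Dmd and Pcp4 were detected on 0 of 8 arrays, Sgcd on 1 and Synpo2 on 2, so these 4 were not tested.

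Knockout mice carried Villin-CreERT2, a tamoxifen-activated recombinase made in the intestinal epithelium, together with Ihh alleles flanked by recombination sites (Ihh fl/fl). Wildtype mice carried Villin-CreERT2 with intact Ihh (Ihh+/+). Both genotypes were of the C57BL/6 background, received 1 mg tamoxifen into the peritoneum on each of 5 days, and gave their colons at day 7. There were 4 colons per genotype on 1 Illumina beadchip and each is taken as 1 mouse. Nothing gives the age of the mice here. The recombinase is driven in the epithelium, so the smooth muscle itself was not the targeted tissue.

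Smooth muscle contracts when calcium activates myosin light chain kinase, which phosphorylates the regulatory light chain of myosin, and relaxes when myosin phosphatase removes that phosphate. The transcription factor SRF, with its coactivator myocardin, switches on most contractile genes by binding a short element called the CArG box. In the gut, hedgehog ligands from the epithelium act on the mesenchyme that forms the muscle layers, and they are known to promote smooth muscle differentiation there.

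Mean probe intensity was 902 to 1258 per array. Of 25697 probes, 14465 to 14762 were detected in the knockout and 14720 to 15040 in the wildtype. Ihh had log2 intensities of 9.56, 9.03, 9.28 and 9.50 in knockout 1 to 4, against 10.47, 10.50, 10.42 and 10.17 in wildtype 1 to 4, a difference of -1.05 (SE 0.149, limma adjusted p = 0.130). Hhip, a hedgehog target and inhibitor, was not well above background in any knockout colon and detected in all 4 wildtype colons, at least 1.80-fold lower in the knockout (adjusted p = 0.0131). Xist and Y-linked probes gave a male pattern in 3 of 4 knockout and 1 of 4 wildtype mice. Transcripts of skeletal muscle were high in knockout 2, knockout 4, wildtype 2 and wildtype 3, where Myh8, a myosin of striated muscle, read 11.17 to 12.74, against 5.50 to 5.71 in the other 4 mice. Wildtype arrays held positions A to D of the chip and knockout arrays E to H, so position and genotype cannot be told apart except through a linear trend along the chip.

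Most smooth muscle genes read lower in the knockout colons, but no single gene passed the test. Of the 25 tested members, 22 had a lower mean in the knockout, where 50.9% of all named genes did, and the median log2 difference was -0.32, against -0.0047 over all named genes. By limma, 0 of 25 had an adjusted p under 0.05, where 0.0196% of all named genes were called lower, and 6 of 25 were lower at an unadjusted p under 0.05, where 4.34% of all named genes were. These 6 were Pgm5, Lmod1, Cald1, Myocd, Synm and Tpm2, and 0 members were higher at that level, against 6.7% of all named genes. In 4 members (Pgm5, Lmod1, Cald1 and Ppp1r14a) every knockout value lay below every wildtype value, which held for 2.83% of all named genes. The reverse, every knockout value above every wildtype value, held for 0 members and 4.85% of all named genes. In RNA from whole tissue, fewer smooth muscle cells and less RNA per cell cannot be told apart. With chip position as a linear term 13 of 25 were lower and the median was -0.057. The median was -0.17 with the sex pattern as a term, -0.21 with array weights and -0.20 without knockout 4. Without knockout 2 the groups did not overlap in 9 members, against 5.35% of all named genes. With the probes of each gene averaged they did not overlap in 2 members, against 2.7% of all named genes.

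**Figure D1:**
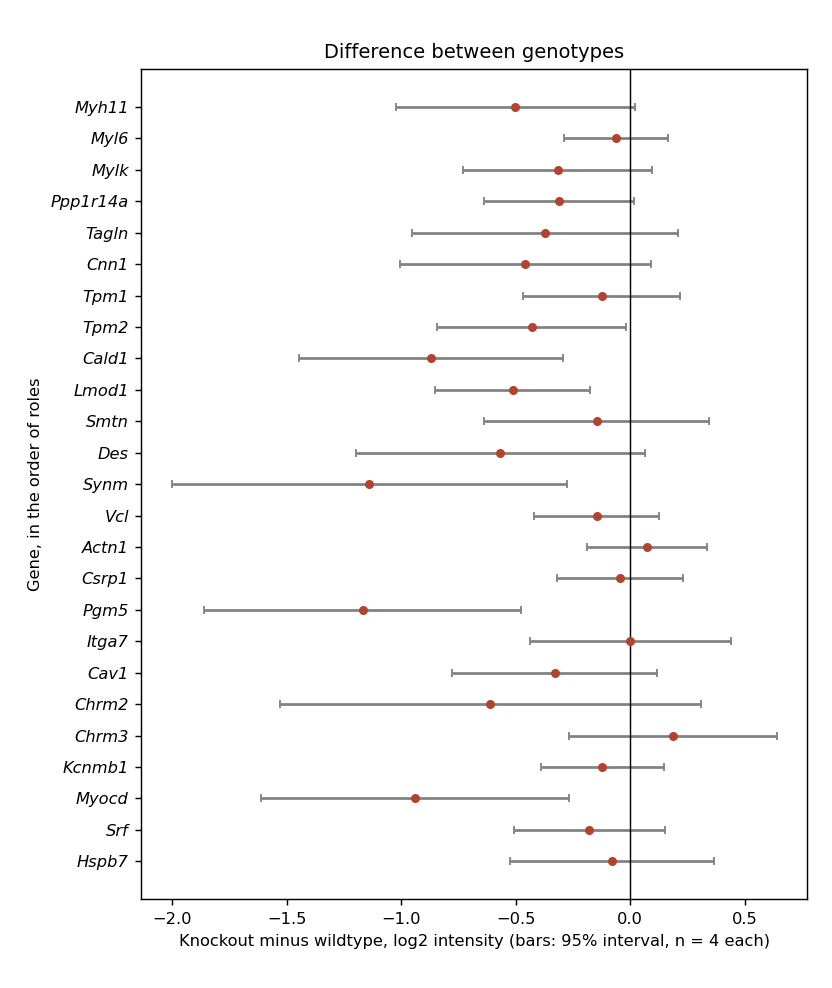
Differences in log2 intensity, knockout minus wildtype, for the 25 tested genes in the order of their roles. Points are fitted differences and bars their 95% intervals (n = 4 each); the intervals of Pgm5, Synm, Myocd, Cald1, Lmod1 and Tpm2 lie below 0, none lies above it.

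Both transcriptional regulators had a lower mean in the knockout, by different amounts. Myocd encodes myocardin, the coactivator that gives SRF its smooth muscle targets. Its log2 intensity was 7.68, 7.86, 7.27 and 7.06 in knockout 1 to 4, against 9.07, 8.72, 7.81 and 8.02 in wildtype 1 to 4. Wildtype 3 lay just below knockout 2, and otherwise the genotypes were apart. The difference of -0.94 (SE 0.297) leaves a signal at 52.2% of wildtype, with a limma adjusted p of 0.387. It rests on 1 probe, since the other Myocd probes were detected on 1 and 0 of 8 arrays and were not tested. Srf encodes the DNA-binding partner itself and averaged 10.54 ± 0.230 in the knockout and 10.72 ± 0.157 in the wildtype (SD, n = 4 each), a difference of -0.18 (95% interval -0.51 to 0.15), or -0.09 without knockout 4 and -0.10 without wildtype 4. A second, dimmer Srf probe lay on the other side, with a difference of 0.41 (SE 0.184, adjusted p = 0.467), so the probes of Srf disagree in sign.

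The CArG box is 10 letters long, 2 C, then 6 letters that are A or T, then 2 G, and reads as the same pattern on both strands. RefSeq promoter sequences (GRCm38.p6, 250 bases before to 50 after the start) were at hand for 29 of the 33 members. Itga7, Myh11, Myocd and Tagln had no sequence under that symbol, so they were not searched for a box. A gene with several listed starts counted where any of them had a box. Such a box was in 5 of these 29 (17.2%), against 1.81% of 27025 genes in the promoter table and 3 of the 21 tested members (14.3%), against 1.74% of all tested genes there. The 3 tested members with a box are shown because they can be set beside their measured levels. Each is a stretch of 100 bases around the box, lying before the start and read on the strand of the gene, with the box in capitals.
Srf (chr17:46556180-46556279, minus strand): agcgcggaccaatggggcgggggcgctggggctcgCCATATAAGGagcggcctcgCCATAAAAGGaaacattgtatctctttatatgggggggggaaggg
Vcl (chr14:20929148-20929247, plus strand): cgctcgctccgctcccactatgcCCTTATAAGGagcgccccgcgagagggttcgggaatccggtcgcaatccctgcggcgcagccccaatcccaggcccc
Myl6 (chr10:128493010-128493109, minus strand): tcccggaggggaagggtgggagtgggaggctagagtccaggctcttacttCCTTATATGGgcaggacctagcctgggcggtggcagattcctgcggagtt
The Srf stretch holds 2 boxes, which begin 82 and 62 bases before the start, the Vcl box begins 227 and the Myl6 box 50 bases before it. The differences of these 3 genes were small, -0.18 for Srf, -0.15 for Vcl and -0.06 for Myl6. The windows of Pgm5, Lmod1, Cald1, Synm and Tpm2 held no box, which says only that these letters are not in this stretch. The other members with a box, Myl9 and Dmd, had no level to compare.

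The motor of smooth muscle is myosin, and its heavy chain was lower in part of the knockout mice. Myh11 encodes the smooth muscle myosin heavy chain. It read 12.99, 13.38, 12.21 and 12.63 in knockout 1 to 4, against 13.13, 13.41, 13.37 and 13.30 in wildtype 1 to 4. Knockout 1, 3 and 4 lay below all wildtype mice, knockout 3 the farthest, while knockout 2 lay among them. The difference was -0.50 (SE 0.231, adjusted p = 0.471), or 70.6% of wildtype, and -0.30 without knockout 3. Myl6, the essential light chain that many non-muscle cells also make, averaged 14.49 ± 0.070 in the knockout and 14.55 ± 0.073 in the wildtype (SD, n = 4 each), with a 95% interval of the difference from -0.29 to 0.17.

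Of the genes that set myosin phosphorylation, a kinase and an inhibitor of the phosphatase were measured, and both had a lower mean in the knockout without passing the test. Mylk encodes myosin light chain kinase, the enzyme that starts contraction, and differed by -0.32 (SE 0.183, adjusted p = 0.534). It read 13.39, 13.81, 12.98 and 13.12 in knockout 1 to 4, against 13.68, 13.71, 13.71 and 13.46 in wildtype 1 to 4. Knockout 2 lay above all wildtype mice and the other knockouts below them, and the difference was -0.48 without knockout 2 and -0.20 without knockout 3. A second Mylk probe gave -0.38 (SE 0.165). Ppp1r14a encodes CPI-17, an inhibitor of myosin phosphatase that sustains contraction. It read 9.70, 9.67, 9.53 and 9.18 in knockout 1 to 4, against 9.75, 9.72, 9.82 and 10.03 in wildtype 1 to 4. The genotypes did not overlap, but the gap between knockout 1 and wildtype 2 was small, and the difference was -0.31 (SE 0.145, adjusted p = 0.474), or -0.20 without knockout 4. Its second probe overlapped, with a difference of -0.18 (SE 0.171).

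Of the 7 genes whose proteins sit on the thin filament, 7 had a lower mean in the knockout, against 50.9% of all named genes, with a median log2 difference of -0.43. The groups did not overlap in 2 of them, against 2.83% of all named genes, and 0 of 7 passed by limma. Cald1 encodes caldesmon, which binds actin and restrains myosin. Its values were 7.72, 7.94, 7.17 and 7.70 in knockout 1 to 4, against 9.14, 8.42, 7.97 and 8.49 in wildtype 1 to 4. The highest knockout lay just under the lowest wildtype, wildtype 3, and the difference of -0.87 (SE 0.254, adjusted p = 0.362) left 54.7% of the wildtype signal. The second Cald1 probe gave -0.98 (SE 0.416), and its groups overlapped. Lmod1 encodes leiomodin, which starts new actin filaments. It read 8.72, 8.95, 8.42 and 8.45 in knockout 1 to 4, against 9.10, 9.09, 9.05 and 9.36 in wildtype 1 to 4. All knockout mice lay below all wildtype mice, and the difference was -0.51 (SE 0.150, adjusted p = 0.362), or 70.1% of wildtype.

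Tagln and Cnn1 are classic markers of differentiated smooth muscle. Tagln encodes transgelin, an actin-bundling protein, and read 11.51, 11.52, 10.62 and 10.73 in knockout 1 to 4, against 11.41, 11.82, 11.62 and 11.03 in wildtype 1 to 4. Knockout 1 and 2 lay inside the wildtype range and knockout 3 and 4 below it, with a difference of -0.37 (SE 0.257, adjusted p = 0.587), or -0.22 without knockout 3. Cnn1, calponin, which slows myosin on actin, differed by -0.46 (SE 0.242, adjusted p = 0.509), by -0.28 without knockout 4, and by 0.036 when only knockout 1 and 3 and wildtype 1 and 4, whose skeletal muscle transcripts were low, were compared. Smtn, smoothelin, which is made in contractile but not in immature smooth muscle, differed by -0.15 (SE 0.217), and by 0.021 without knockout 3.

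The tropomyosins lie along the actin filament and steady it. Tpm2 read 12.80, 13.18, 12.69 and 12.42 in knockout 1 to 4, against 12.89, 13.32, 13.19 and 13.40 in wildtype 1 to 4. The groups overlapped through knockout 2 and wildtype 1, and the difference was -0.43 (SE 0.183, adjusted p = 0.450). A second Tpm2 probe read 4.91, 10.04, 5.02 and 9.07 in knockout 1 to 4, against 4.96, 9.08, 8.82 and 4.65 in wildtype 1 to 4. It was high in the same 4 mice as Myh8, in both genotypes. Tpm1 differed by -0.12 (SE 0.151, adjusted p = 0.758), and by -0.23 to -0.06 when each mouse was left out in turn.

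The intermediate filaments, which tie the contractile units together inside the cell, gave some of the larger differences. Synm encodes synemin, which links desmin filaments to the membrane. Its brightest probe read 11.43, 11.51, 10.21 and 10.61 in knockout 1 to 4, against 12.63, 12.53, 11.22 and 11.94 in wildtype 1 to 4. Wildtype 3 lay below knockout 1 and 2, the rest of the wildtype above all knockouts. The difference was -1.14 (SE 0.382, adjusted p = 0.387), or 45.4% of wildtype. Des encodes desmin, the muscle intermediate filament protein. It read 13.21, 13.58, 12.54 and 12.41 in knockout 1 to 4, against 13.05, 13.85, 13.62 and 13.50 in wildtype 1 to 4. Knockout 3 and 4 were again lowest, and wildtype 1 lay below knockout 1 and 2. The difference of -0.57 (SE 0.279) had an adjusted p of 0.483.

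**Figure D2:**
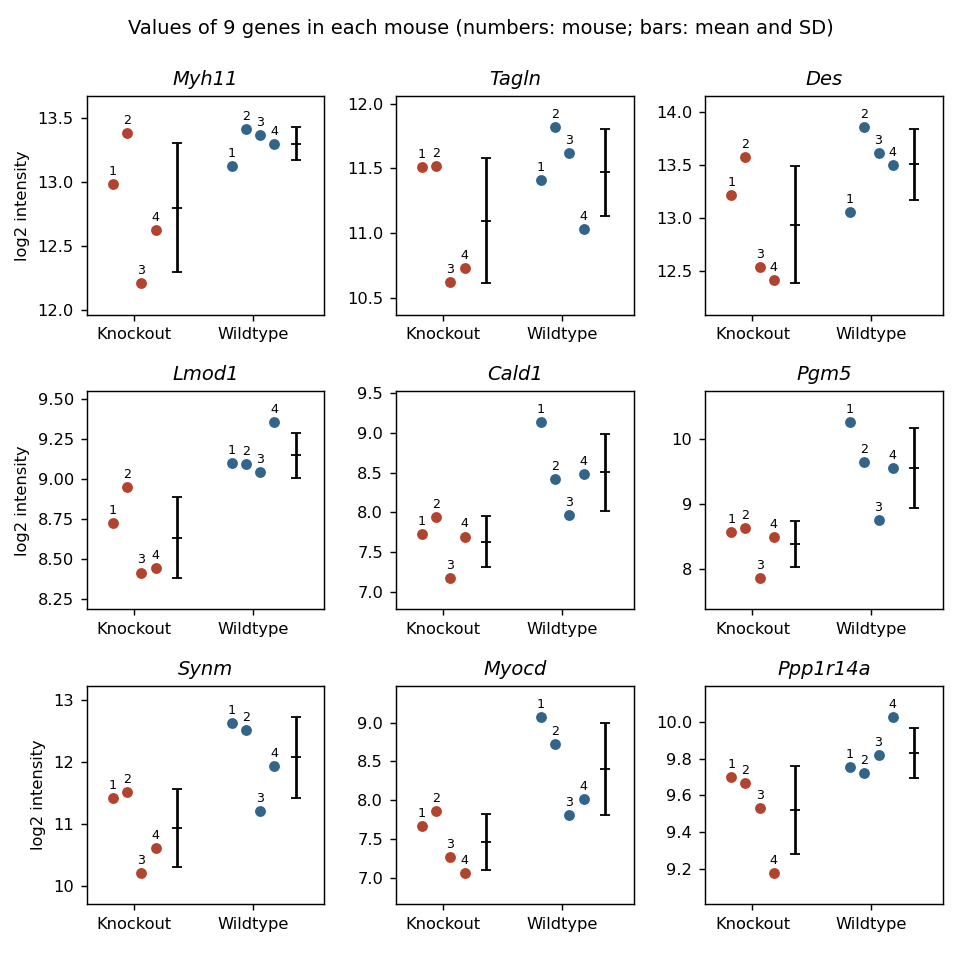
Log2 intensity of 9 genes in each of 4 knockout and 4 wildtype mice; numbers name the mouse and bars give the mean and SD. Knockout 3 and 4 lie below all wildtype mice in Myh11, Tagln and Des, where knockout 2 lies within the wildtype range, and all 4 knockouts lie below all wildtype mice in Lmod1, Cald1, Pgm5 and Ppp1r14a.

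At the dense bodies and membrane plaques, where actin filaments are anchored, 3 of 5 tested genes had a lower mean, and Pgm5 differed the most. Pgm5 encodes aciculin, a protein of muscle adhesion plaques related to phosphoglucomutase. It read 8.57, 8.63, 7.86 and 8.49 in knockout 1 to 4, against 10.26, 9.65, 8.75 and 9.55 in wildtype 1 to 4. Every knockout lay below every wildtype, with wildtype 3 close to the knockouts. The difference of -1.17 (SE 0.306) left 44.5% of the wildtype signal and had the smallest adjusted p of the 25 genes, 0.342. Vcl, vinculin, which couples actin to integrins and cadherins, differed by -0.15 (95% interval -0.42 to 0.13). Actn1, the actin crosslinker alpha-actinin, differed by 0.07 (-0.19 to 0.33) and Csrp1, a LIM protein of smooth muscle, by -0.04 (-0.32 to 0.23). Itga7, a laminin-binding integrin of muscle, averaged 8.28 ± 0.357 in the knockout and 8.28 ± 0.223 in the wildtype (SD, n = 4 each), and the interval of its difference, -0.44 to 0.44, still allows a moderate change either way. The sign of Csrp1 turned with median scaling (0.0030) and without knockout 3 (0.012), and that of Itga7 without knockout 2 (-0.095), knockout 3 (-0.081) or wildtype 4 (-0.11).

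Probes of the same gene did not always tell the same story. The second Pgm5 probe read 7.73, 8.15, 7.52 and 7.87 in knockout 1 to 4, against 7.89, 8.66, 8.37 and 8.67 in wildtype 1 to 4, a difference of -0.58 (SE 0.206), and its groups overlapped. The second Synm probe, annotated to the same transcript as the first, differed by -0.61 (SE 0.281), and the dimmest one, annotated to another transcript, by -0.28 (SE 0.416). Wildtype 1 had the highest wildtype value on the first Pgm5 and Synm probes and the lowest on the second ones. All tested probes of both genes had a lower mean in the knockout.

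**Figure D3:**
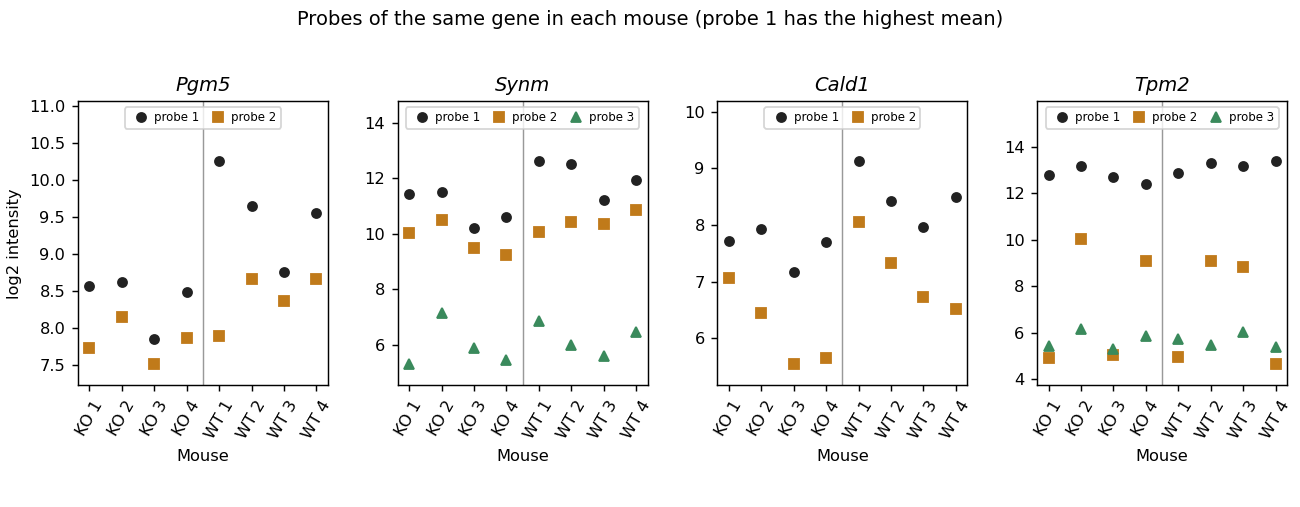
Log2 intensity of each tested probe of Pgm5, Synm, Cald1 and Tpm2 in the 4 knockout (KO) and 4 wildtype (WT) mice, with probe 1 the one of highest mean. Wildtype 1 is high on probe 1 and low on probe 2 of Pgm5, and probe 2 of Tpm2 reads 8.82 to 10.04 in KO 2, KO 4, WT 2 and WT 3 and 4.65 to 5.02 in the other mice.

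Of the membrane complexes, the caveolae could be read and the dystrophin complex could not. Cav1, the coat protein of caveolae, averaged 12.22 ± 0.335 in the knockout and 12.55 ± 0.269 in the wildtype (SD, n = 4 each), a difference of -0.33 (SE 0.198, adjusted p = 0.544), or -0.19 without knockout 4. Dmd, dystrophin, was detected on no array with either of its probes, and Sgcd, delta-sarcoglycan, on 1 wildtype array. Synpo2, an actin-binding protein of the muscle Z-disc, was detected in 1 knockout and 1 wildtype colon. Pcp4, a regulator of calmodulin, was at background throughout, and Hspb7, a small heat shock protein of muscle, differed by -0.08 (SE 0.197), turning to 0.014 without wildtype 3 or knockout 3.

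The muscarinic receptors receive acetylcholine from enteric neurons, and both were dim. Chrm2, the M2 receptor, read 5.44, 4.93, 5.12 and 5.87 in knockout 1 to 4, against 7.15, 5.88, 5.04 and 5.74 in wildtype 1 to 4. It was detected in 1 knockout and 3 wildtype colons, wildtype 1 stood far above all others, and the rest overlapped. The difference of -0.61 (SE 0.406) had an adjusted p of 0.579. Chrm3, the M3 receptor that drives contraction, read 5.95, 6.37, 6.52 and 5.96 in knockout 1 to 4, against 5.94, 5.58, 6.22 and 6.31 in wildtype 1 to 4. The groups overlapped, and its difference of 0.19 (SE 0.201, adjusted p = 0.727) was the largest positive one among the members, though it was 0.04 without wildtype 2 and 0.08 without knockout 3. Kcnmb1, the smooth muscle subunit of a calcium-activated potassium channel that limits contraction, differed by -0.12 (95% interval -0.39 to 0.15).

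The 4 knockout mice were not alike in these genes. Knockout 3 lay below all wildtype mice in 19 of the 25 genes and knockout 4 in 20, where 21.6% and 32.1% of all named genes did so. Knockout 1 did so in 9 genes and knockout 2 in 6, against 17.4% and 19.6% of all named genes. The array of knockout 4 had the fewest probes detected (14465). Knockout 1 (14539) and knockout 2 (14540) also lay below the lowest wildtype array (14720), and knockout 3 had 14762. The mean correlation of the knockout 4 array with the other arrays was the lowest, 0.956, against 0.964 to 0.977 for the rest. The part of array quality in the low values was not tested. In 18 of the 25 genes knockout 3 and 4 were both below the whole wildtype range, against 11.1% of all named genes, a pairing chosen after the values were seen. Knockout 2 was the highest knockout in 19 of 25. The share of all named genes was not counted for this, so it cannot be called particular to the members. The mean centred log2 value of the 25 genes was -0.05, 0.09, -0.39 and -0.38 in knockout 1 to 4, against 0.26, 0.24, 0.10 and 0.13 in wildtype 1 to 4, so that all knockouts lay below all wildtype mice, knockout 2 only just under wildtype 3. Knockout 3 had low and knockout 4 high skeletal muscle transcripts, and both showed the male pattern, as did knockout 2 and wildtype 1.

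**Figure D4:**
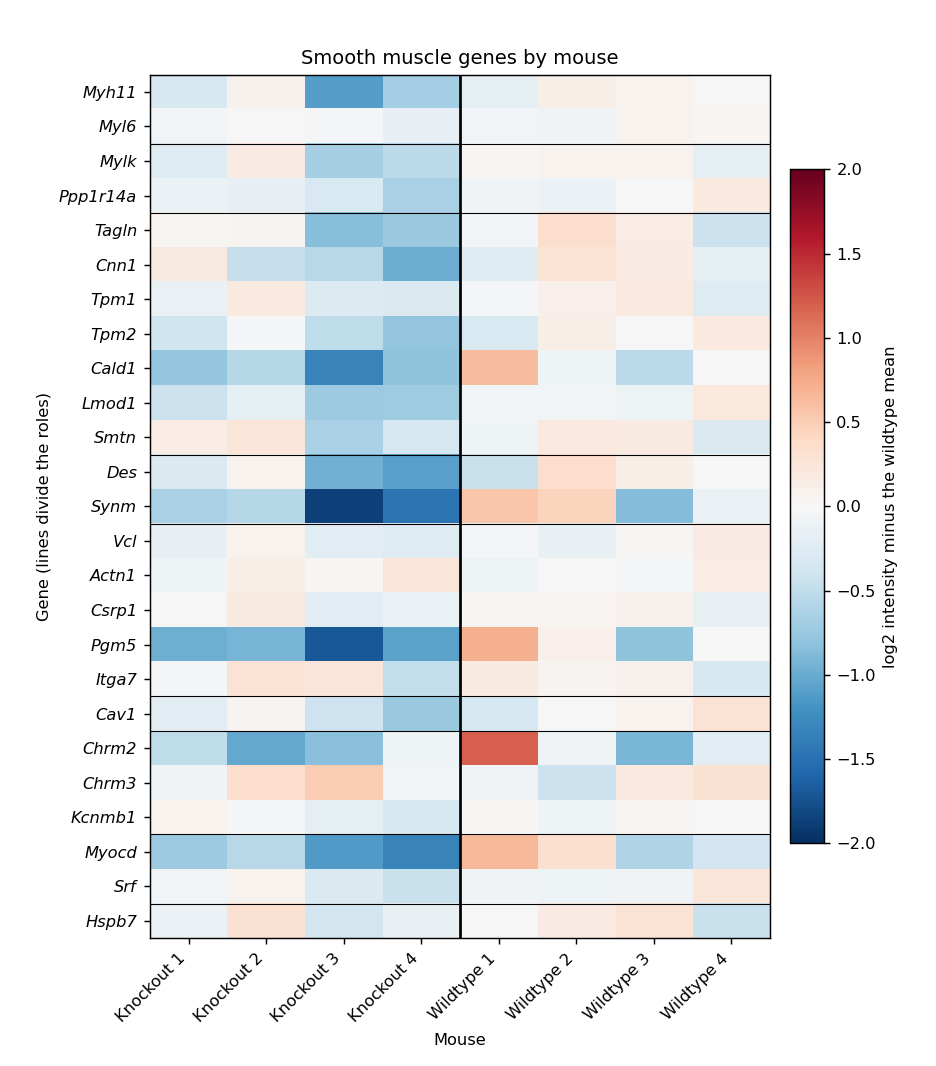
Log2 intensity of the 25 tested genes minus each gene's wildtype mean, with knockout mice on the left and wildtype mice on the right; blue is lower and red higher. Knockout 3 and 4 are blue in most rows, and Cald1, Synm, Pgm5 and Myocd are blue in all knockouts and also in wildtype 3.

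The wildtype mice varied as well, and in a pattern that several of the most different members share. In Cald1, Synm, Pgm5, Chrm2 and Myocd wildtype 1 was the highest and wildtype 3 the lowest of the wildtype mice, an order that 9.49% of all named genes had. This order was chosen after the values were seen, so the share beside it is a description only. The wildtype SD of these 5 genes was 0.48 to 0.88, against 0.13 for Myh11 and 0.14 for Lmod1. Without wildtype 1 their differences were -0.66 for Cald1, -0.95 for Synm, -0.93 for Pgm5, -0.21 for Chrm2 and -0.72 for Myocd.

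Genes that work beside the members were read from lists of their own. The smooth muscle actins, which form the thin filament, also had lower means in the knockout, with Actg2 at -0.49 (SE 0.189, adjusted p = 0.426) and Acta2 at -0.26 (SE 0.132, adjusted p = 0.497). Of 27 tested genes of contraction signalling and calcium handling, 21 were lower, with a median of -0.24, and 0 passed over all probes. Cacna2d1, a calcium channel subunit, differed by -1.22 (SE 0.316, adjusted p = 0.336), and its values of 7.51, 7.24, 6.35 and 7.45 in knockout 1 to 4 lay below 8.76, 8.81, 7.77 and 8.10 in wildtype 1 to 4. Casq2, a calcium store protein, differed by -0.77 (SE 0.214) without overlap, and Pln, which restrains the calcium pump of the store, by -0.63 (SE 0.265). Rhoa and Ryr2 were detected on no array.

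Of 14 tested SRF coactivators and transcription factors of smooth muscle 9 were lower, with a median of -0.10. Foxf1, a forkhead factor of gut mesenchyme, differed by -0.53 (SE 0.102, adjusted p = 0.191) and Smad3, a mediator of TGF-beta signals, by -0.37. Tead3, a partner of YAP, differed by 0.39 (SE 0.149) but was dim, detected in 4 knockout and 1 wildtype colons. Of 18 other members of the dystrophin and integrin complexes 13 were lower, with a median of -0.10, among them Parva (-0.37), which links integrins to actin. Sntb2, a syntrophin, was at 0.39. Utrn, the dystrophin relative utrophin, was at 0.53 but dim, detected in 4 knockout and 3 wildtype colons. Of 21 other actin-binding and Z-line genes 13 were lower, with a median of -0.12, and Palld (-0.65), Popdc2 (-0.52) and Pdlim3 (-0.29) had the smallest p. No gene of these 3 lists passed by limma, and over all named genes 50.9% were lower.

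Markers of other cell types of the colon wall were read for the same mice. Enteric neuron markers were lower in 8 of 10 tested genes, with a median of -0.28, and their mean centred level was -0.41 to 0.02 in the knockout and -0.12 to 0.32 in the wildtype. Knockout 3 (-0.41) and knockout 4 (-0.20) were lowest here too, Chat (-0.79, SE 0.313), Prph (-0.62) and Vip (-0.59) had the smallest p, and Snap25 was detected on no array. Markers of interstitial cells of Cajal, the pacemaker cells of the muscle layer, were lower in 3 of 3 tested genes, with a median of -0.14. Their levels were -0.15 to 0.06 in the knockout and -0.10 to 0.23 in the wildtype. The 3 genes were Ano1 at -0.38 (SE 0.142), Cd34 at -0.14 (SE 0.167) and Gja1 at -0.025 (SE 0.189). Kit and Etv1 were not tested, and Thbs4 was not detected. The part of neurons and pacemaker cells in the smooth muscle result was not tested.

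Pericyte markers were lower in 5 of 7 (median -0.22, levels -0.44 to 0.17 in the knockout and -0.22 to 0.40 in the wildtype) and fibroblast markers in 6 of 9 (median -0.09, levels -0.39 to 0.32 in the knockout and -0.09 to 0.12 in the wildtype). Knockout 4 had the highest fibroblast level (0.32) while its smooth muscle level was among the lowest, and its pericyte level was 0.17. Knockout 3, lowest for the smooth muscle members, was also the lowest of all mice for fibroblasts (-0.39), pericytes (-0.44) and endothelium (-0.23). Endothelial markers were lower in 4 of 6, with a median of -0.09 and levels of -0.23 to 0.10 in the knockout and -0.12 to 0.18 in the wildtype. Mesothelial markers were lower in 1 of 4 tested genes (median 0.14, levels -0.64 to 0.62 in the knockout and -0.68 to 0.61 in the wildtype). Epithelial markers were lower in 4 of 8, with a median of -0.01 and levels of -0.08 to 0.08 in the knockout and -0.04 to 0.03 in the wildtype. Each of the 8 epithelial markers with a probe was tested. The enteric glia markers with a probe, S100b, Gfap and Cdh19, were not detected, and the cardiac markers Myh6, Nppa and Tnni3 were not detected either. Of the 2 cardiac markers tested, both light chains of atrial muscle, Myl4 differed by -0.64 (SE 0.167, adjusted p = 0.336) without overlap and Myl7 by 0.38 (SE 0.295, adjusted p = 0.625). The part of these cell types in the smooth muscle result was not tested.

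Skeletal muscle markers were higher in 19 of 22 tested genes, with a median of 0.33, levels of -1.33 to 2.21 in the knockout and -1.43 to 1.03 in the wildtype, and Myh4 and Casq1 not detected. With the skeletal muscle score as a term, 23 of the 25 smooth muscle members were lower, with a median of -0.34. In the 4 mice with low skeletal muscle transcripts (knockout 1 and 3, wildtype 1 and 4) 22 of 25 were lower, with a median of -0.26. Skin markers were lower in 9 of 10 genes (median -0.78, levels -2.35 to 1.13 in the knockout and -2.63 to 1.81 in the wildtype), Dsg3 and Dsc3 were not detected, Krt14 read 7.79 to 12.48 in the knockout and 6.63 to 15.21 in the wildtype, and their part in the result was not tested.

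**Figure D5:**
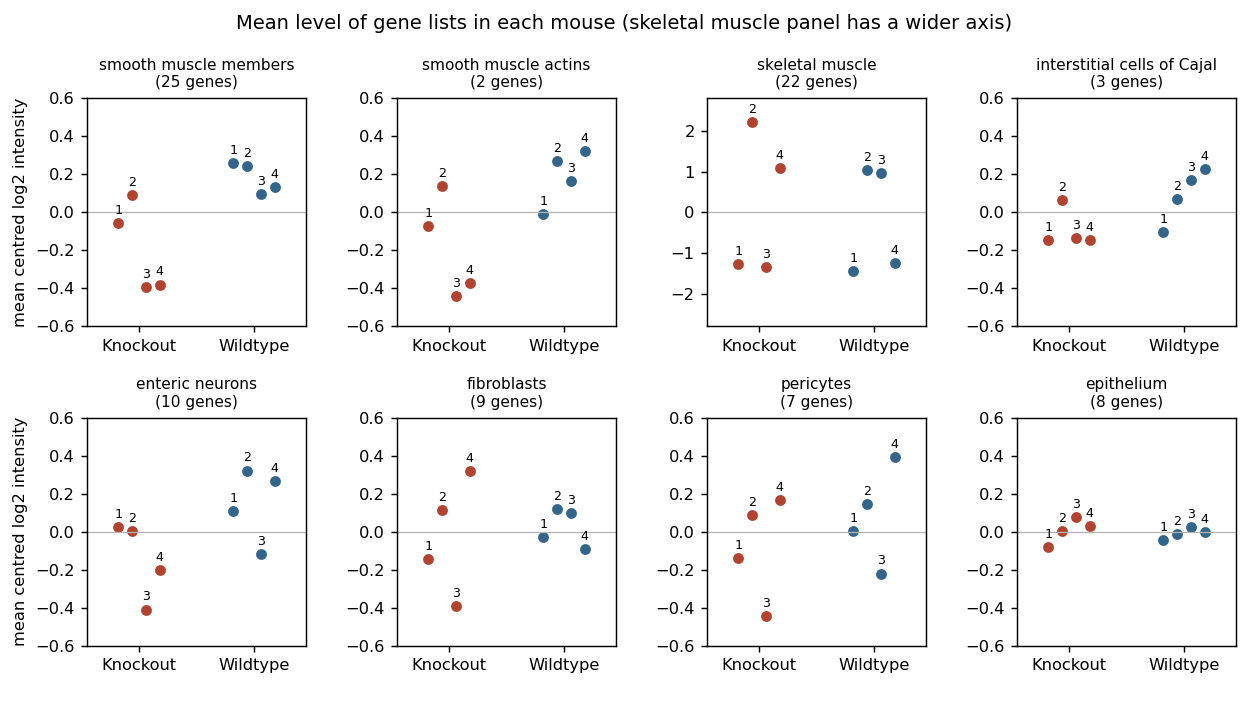
Mean centred log2 intensity of 8 gene lists in each mouse, knockout left and wildtype right, numbers naming the mouse; the skeletal muscle panel has a wider axis. Knockout 3 and 4 are lowest for the smooth muscle members (-0.39 and -0.38), the smooth muscle actins and the enteric neurons, and the epithelial level stays between -0.08 and 0.08 in all mice.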

How the data were processed

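The deposited table of raw values has 25697 probes on 8 Illumina arrays, each with an average signal intensity and its detection p-value, per the file headers. The submitters' processing notes name GenomeStudio. A second table holds the authors' processed intensity values, which match quantile normalized raw values to within 0.0278 on the log2 scale. It was used as an alternative, and how it was made is not stated. All columns were tied to samples through the labels.

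Intensities were background corrected by normexp from the detection p-values with an offset of 16, then quantile normalized and log2 transformed (neqc, limma 3.58.1, R 4.3.3), so folds of dim genes are understated. Probes detected (p under 0.05) on at least 4 of 8 arrays (14754) were fitted with genotype as the only term, with two-sided p-values adjusted by Benjamini and Hochberg over all of them. Probes were named from GEO's platform annotation, 23978 with 1 symbol and 1719 with none, and the brightest tested probe stood for a gene. Of 8 members with several tested probes, Srf and Tpm2 had probes that differed in sign. Levels of lists are means of gene-centred log2 values. Members and lists were chosen with earlier results of these data known. All members are named, and beside them the targeted gene, the smooth muscle actins and the up to 3 genes of smallest p in each companion list. Members with an unadjusted p under 0.05, without overlap, or among Myh11, Tagln, Des, Chrm2 and Chrm3 are given in every mouse. Nothing says that same-numbered mice were paired, and their deviations correlated at 0.14, 0.21, -0.18 and -0.04. The number of arrays limits the precision. In 5 simulations of 14754 probes for the knockout against wildtype comparison, 200 probes were changed. The fit recovered 6.0% of probes lowered by 0.5 on the log2 scale, 67.2% of those lowered by 1 and 97.2% of those lowered by 2. These shares hold for that many changed probes. In the real comparison 2 named genes were called, so the adjusted cutoff was stricter, and Ihh, at -1.05, was not called.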

Additional observations from a re-analysis of the deposited data

Results flagged for a closer look

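In 2 of 50 groups of 4 mice, 1 mouse lay far from the others relative to the range of its group, a pattern chance gives in about 1 of 20 groups. For Mylk in the wildtype, wildtype 4 read 13.46 on the log2 scale, where the next value was 13.68 and the highest 13.71. For Srf in the wildtype, wildtype 4 read 10.95, where the next value was 10.65 and the lowest 10.62. The second Mylk probe did not show the gap, with 13.38 in wildtype 4 and 13.34 to 13.38 in the other wildtype mice.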

How the results depend on the processing

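No member was called by limma in any of the 20 alternatives run, with a smallest adjusted p of 0.138 to 0.985. Calls were rare among all named genes too, 0 to 10 per alternative, so the lack of calls is not particular to the members. The median difference kept its sign in all 20. With array position as a term 13 members were lower with a median of -0.057, and the signs of 13 genes turned, Tagln to 0.54, Smtn to 0.45, Myocd to 0.36, Hspb7 to 0.32, Synm to 0.29, Cnn1 to 0.26, Csrp1 to 0.21, Tpm1 to 0.17, Mylk to 0.15, Kcnmb1 to 0.13, Chrm2 to 0.11, Chrm3 to -0.20 and Actn1 to -0.24. Every knockout array lies at a later position than every wildtype array, and the cause was not tested. Elsewhere the sign turned for Csrp1 with median scaling (0.0030), for Itga7 with the sex pattern (-0.075) or the skeletal muscle score (-0.0020) as a term, for Srf with the mean of its probes (0.12), and for Cnn1 (0.036) and Actn1 (-0.053) when only knockout 1 and 3 and wildtype 1 and 4 were compared. The count without overlap was 2 when the probes of each gene were averaged, against 2.7% of all named genes, and 11 in those 4 mice, against 18.3%, since fewer mice make it easier to reach. Leaving out each mouse in turn, it was 4 to 9, against 3.74 to 6.49% of all named genes, and differences ranged from -0.23 to 0.014 for Hspb7, from -0.11 to 0.16 for Itga7, from -0.28 to 0.021 for Smtn and from -0.12 to 0.012 for Csrp1. With the replicate number as a block (replicate block) 0 members and 0 of all named genes were called by limma (smallest adjusted p of a member 0.294). The median stayed at -0.32. Correlations of same-numbered mice had both signs, so the numbers were not taken as pairs. Dim probes near background, such as those of Chrm2, limit what could be measured.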
